A study of Mus musculus with 35 samples.

Results

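The primary cells from which the iPS clones of this study were made are described here against one another: PaS, OP and TTF, with 1 array each, 3 of the 35 arrays of the series. The arrays were taken by their labels, and the gene lists below were drawn up with earlier results of these data known. PaS cells are bone marrow cells sorted as CD45-Ter119-PDGFRa+Sca-1+ and labelled MSC (mesenchymal stem cells), OP cells are bone marrow cells sorted as CD45-Ter119-PDGFRa-Sca-1- and labelled osteo progenitors, and TTF are tail tip fibroblasts. Per the study's methods, all came from adult mice carrying a Nanog-GFP-Puro transgene, a reporter of the pluripotency gene Nanog. Marrow cells were freed from crushed bones with collagenase before the sort, whereas TTF were the cells that crawled out of minced tail pieces onto a dish and were passaged, for which no sort is described. For iPS induction, the methods describe all 3 cell types as prepared concurrently and transduced 2 weeks after the expansion that followed the sort. Whether the RNA of PaS and OP was taken right after the sort or after such culture is not given in the sources used here. Nor is the number of animals in each sample. The other 32 arrays were 30 iPS clones and 2 ES cell lines, and they serve below only as a yardstick.

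PDGFRa is a receptor for platelet-derived growth factor and Sca-1, encoded by Ly6a, is a membrane protein, and cells of adult marrow stroma that carry both can give rise to bone, fat and cartilage. Osteoprogenitors are further along the bone lineage, and fibroblasts of the skin build the collagen matrix of the dermis. Fibroblasts keep in culture the Hox genes and other positional transcription factors of the site they were taken from.

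RNA was labelled with Cy3 and put on Agilent oligonucleotide arrays of the mouse genome, 1 sample to an array. A level is log2 of the background-subtracted intensity over the 75th percentile of its array, so that 0 is a signal equal to that percentile and 1 unit is a 2-fold difference. The 75th percentile was 970.0 intensity units for PaS, 649 for OP and 704 for TTF, and 63.0% to 64.3% of the 41174 gene probes were well above background by the scanner software's test (called above background below). All 3 arrays lay on 1 slide, together with the ES line EB-3, and were scanned in 1 session, so slide and scan do not separate them. Spots of the same probe repeated within an array had a median SD of 0.046 (PaS), 0.052 (OP) and 0.055 (TTF) log2 units, which covers the spot and not the sample. With 1 array per population there is no spread between samples, so no test was made and the differences below describe these 3 RNA samples. In these bulk samples, fewer cells of a type and less RNA per cell cannot be told apart.

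A gene is represented by its probe with the highest mean over the 3 arrays, and 15404 genes with a current symbol were above background on at least 1 of them. A gene is called higher where it was at least 2-fold above and above background on the brighter array. Over probes the counts were 3527 higher and 5050 lower for PaS against OP, 5532 and 6394 for PaS against TTF, and 6009 and 5335 for OP against TTF, so that for PaS against TTF the majority lay on the other side than over genes, which follow. With normexp background correction the probe counts fell to 1784 and 2783, 3026 and 4003, and 3498 and 3136, and quantile normalization put the higher share at 50.6% in PaS against OP, from 41.1%, and 53.3% in PaS against TTF, from 46.4%. PaS against OP gave 2181 genes higher and 2347 lower in PaS, which is 14.2% and 15.2% of all genes. PaS against TTF gave 3330 higher and 2853 lower in PaS (21.6% and 18.5%). OP against TTF gave 3468 higher and 2861 lower in OP (22.5% and 18.6%). In the counts of gene lists below, highest and lowest mean at least 2-fold above or below both other arrays, with a dim array at its measured value. With each dim signal raised to the lowest signal well above background on its array, a floor that gives fewer such genes, 7.09%, 8.36% and 11.97% of all genes were highest in PaS, OP and TTF and 4.76%, 5.64% and 12.1% lowest, and a list's count is given a second time where the floor changed it. The marrow populations were nearer to each other than either was to TTF: over the 29004 probes above background on at least 1 array, the correlation of levels was 0.928 between PaS and OP, 0.848 between PaS and TTF and 0.840 between OP and TTF, as a description across probes. Among probes above background on either array of a pair, 31.0% were past 2-fold and 6.26% past 8-fold between PaS and OP. Between replicate iPS clones of 1 group, in 60 pairs, the same shares had a median of 16% (range 4.31% to 38.8%) past 2-fold and 1.83% (range 0.485% to 8.51%) past 8-fold. The PaS and OP arrays thus differed by more than the middle clone pair and by less than the most unlike one. The shares against TTF were 42.1% and 10.51% for PaS and 40.5% and 10.8% for OP, above every clone pair. Between the 2 ES lines, which lay on different slides and were scanned in different sessions, the shares were 39.4% and 7.19%. Against EB-3, 63.1% to 63.7% of probes were past 2-fold for the 3 populations.

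**Figure D1:**
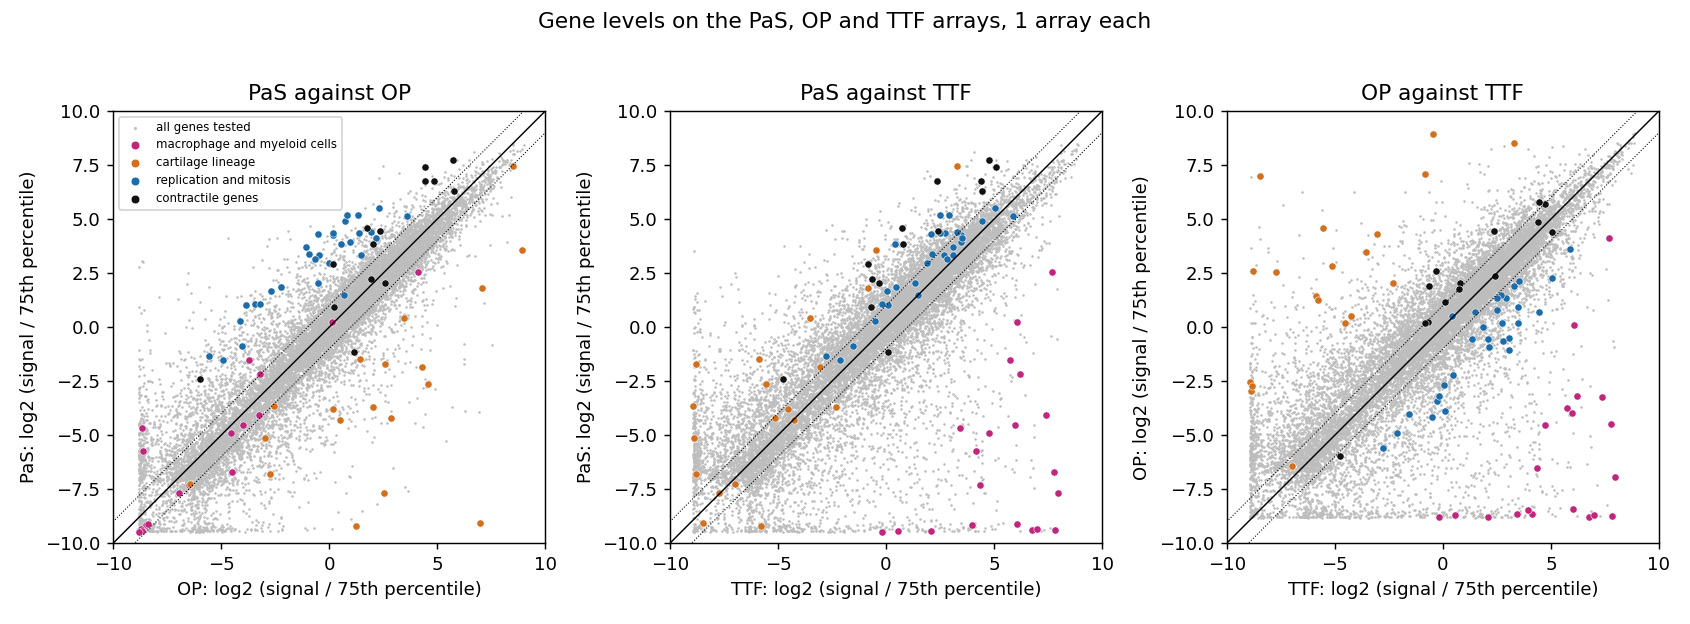
Levels of 15404 genes (grey points) on each pair of arrays, as log2 of the signal over the 75th percentile; the solid line marks equal levels, the dotted lines a 2-fold difference, and coloured points the genes of 4 lists. Macrophage genes lie far on the TTF side, cartilage genes on the OP side, and replication and mitosis genes away from the OP side in both panels with OP.

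Several probes of the same gene gave a check of the probe, though not of the sample, since they share the RNA and the array. Of the further probes of genes past 2-fold on their first probe, 92.5% of 2088 had the same sign in PaS against OP, 92.0% of 3284 in PaS against TTF and 95.3% of 3417 in OP against TTF. A same-signed difference past 2-fold was seen on 70.6%, 75% and 80.1% of them. Where the first probe was past 8-fold, the same sign was found on 97.2%, 97.9% and 98.1% of further probes. For the genes that head each population's list below, all 31 differences had the sign of the first where the further probe was above background on the brighter array. Dim further probes are left out of these counts, among them those of Hsd3b2, which had the opposite sign. The filter on the brighter array favours the same sign, so the 31 do not test these leading genes.

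The sorting markers were read first. Levels are given from here on in the order PaS, OP, TTF. Ly6a, the gene of Sca-1, stood at 5.58, 3.54 and 3.53, and was 4.10-fold higher in PaS than in OP, while OP and TTF had the same level within 1.01-fold. Pdgfra stood at 0.98, 1.58 and 0.59. It was thus not lower in OP, the population sorted as negative for its protein, than in PaS: OP was 1.51-fold higher, and its further probe had the same sign. Ptprc, the gene of the blood cell marker CD45, stood at -5.74, -8.63 and 4.14, where the OP value was not above background. It was 944-fold higher in TTF than in PaS. The marrow arrays were therefore near the floor for Ptprc, as their gates select, whereas the transcript of Pdgfra did not follow the gate that separates them.

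Macrophage genes set TTF apart from both marrow populations. All 20 genes of the macrophage and myeloid list were above background in TTF and at least 2-fold higher there than in PaS and in OP, against 12.7% of all genes. Of the same 20, 10 were above background in PaS and 8 in OP, against 14459 and 14071 of all 15404 genes, and the 10 that were above background in TTF alone entered the test only through TTF. The median difference was -10.99 log2 units in PaS minus TTF and -10.86 in OP minus TTF, where all genes had medians of 0.08 and 0.13. Levels over the list ran from -0.17 to 7.95 in TTF, from -9.49 to 2.56 in PaS and from -8.79 to 4.13 in OP. Tyrobp, an adaptor of activating receptors on myeloid cells, stood at -9.37, -8.73 and 7.84, with only the TTF value above background. It was at least 32841-fold higher in TTF than in PaS and at least 20429-fold higher than in OP, and its probe lies at chr7:27358831-27360558 on mm7, the build that the array's own annotation uses. Ctss, a protease of lysosomes, stood at -7.68, -6.93 and 7.95, at least 22131-fold over OP, where PaS and OP were again not above background. Adgre1, encoding the macrophage antigen F4/80, stood at -9.39, -8.77 and 6.74. Csf1r, the receptor for macrophage colony-stimulating factor, stood at -1.52, -3.72 and 5.74 and was above background on all 3. C1qa, a chain of complement C1q that macrophages secrete, stood at -9.10, -8.40 and 6.04, and C1qc at -9.32, -8.70 and 6.98. The lineage factor of myeloid cells, Spi1, stood at -9.42, -8.67 and 0.56, and the integrin gene Itgam at -9.44, -8.79 and 2.08. For Adgre1, C1qa, C1qc, Spi1 and Itgam, PaS and OP were not above background. Cd68, of the lysosome, stood at -2.15, -3.20 and 6.20, and lysozyme gene Lyz2 at 2.56, 4.13 and 7.68, so that RNA of these genes was found in the marrow samples too. Csf1, which encodes the ligand of Csf1r, ran the other way, at 6.82, 5.49 and 4.37, highest in PaS and lowest in TTF.

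The 10 genes that stood highest in TTF over both other arrays were Ctss, Tyrobp, Pirb, Cd5l, Ms4a7, C1qc, Clec4d, Adgre1, Cd300c2 and Bcl2a1b, all described in myeloid cells. The last of these, Bcl2a1b, stood at -6.15, -8.71 and 6.73 and belongs to a family of near-identical genes, whose transcripts 1 probe may not separate. All 35 genes of the fibroblast matrix list were above background in TTF too, as were 14099 of all 15404 genes. The sample labelled tail tip fibroblasts held RNA of both gene groups, and how many cells of each it held was not measured. Of other blood cells, in the list of 14 neutrophil and lymphocyte genes, 7 were tested, of which 6 were above background in PaS, 5 in OP and 7 in TTF, and 3 (2 with the floor), 1 of them above background in TTF alone, were highest in TTF, against 12.7% of all genes. S100a8 stood at -3.44, -8.40 and -0.90 and Ighm at -5.79, -3.82 and 0.16, while the neutrophil gene Elane and the B cell gene Ms4a1 were not above background on any of the 3. Of 7 osteoclast genes tested, 3 (2 with the floor) were highest in TTF and 1 in OP, against 12.7% and 9.09% of all genes. Above background in TTF alone were 2 of the 7, which so entered the test only through TTF, and 511 of all 15404 genes. Among the 2 was Dcstamp, needed for the fusion of osteoclasts, at -9.10, -7.65 and -4.01. Acp5 was highest in OP, at -2.69, -1.64 and -3.21. Of 9 endothelial genes tested, 5 were highest in TTF (4 with the floor), 1 of them above background in TTF alone, against 12.7% of all genes. Vwf, encoding von Willebrand factor, stood at -5.02, -4.47 and 2.94, but Pecam1, Tie1, Cldn5 and Robo4 were not above background on any of the 3. Tyrobp was above background in 6 of the 30 iPS clones, at -4.03 or less, and C1qa in 1.

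**Figure D2:**
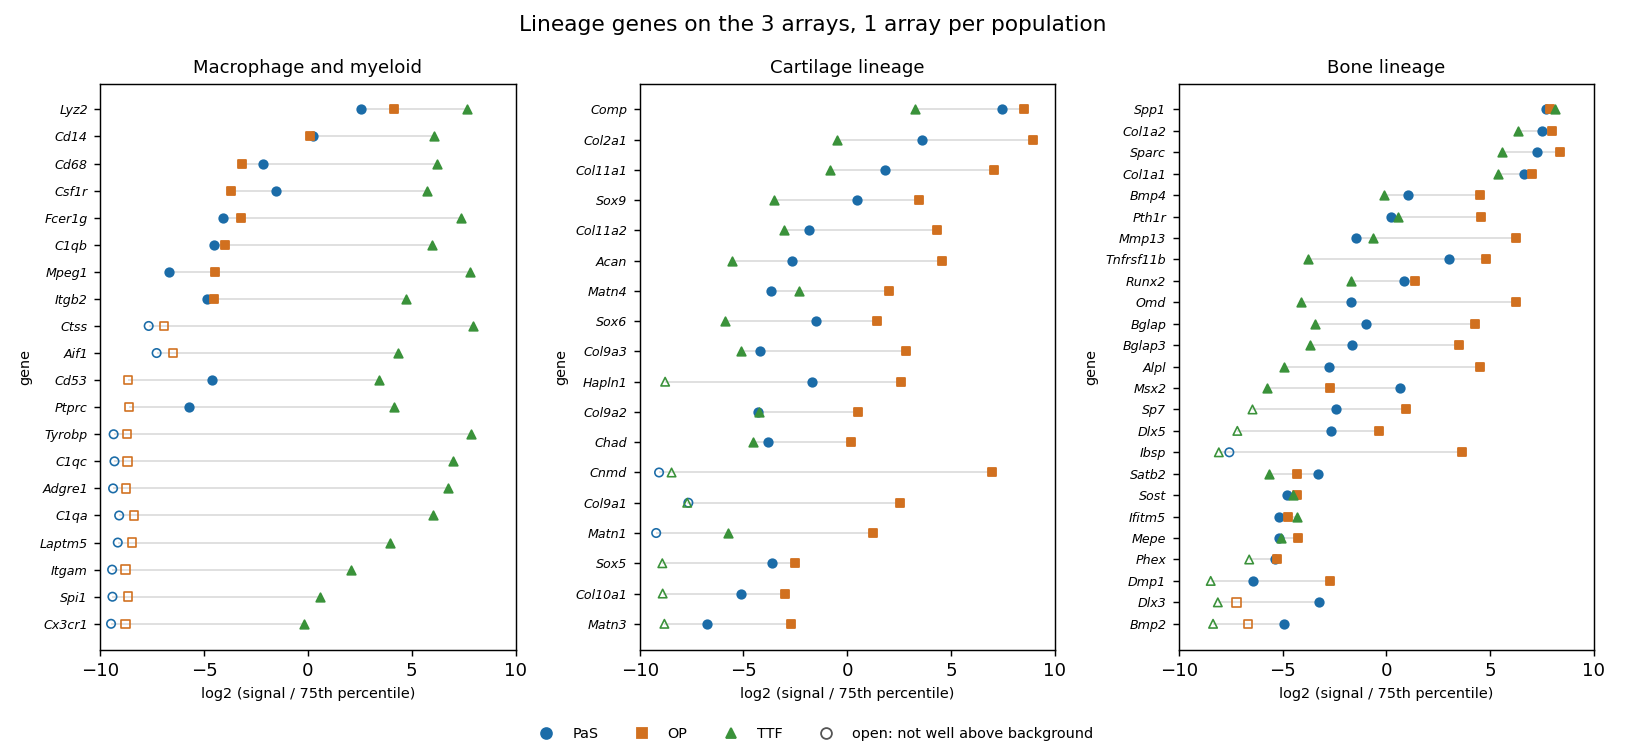
Levels, as log2 of the signal over the 75th percentile, of the genes of 3 lists (rows) on the PaS (circle), OP (square) and TTF (triangle) arrays; open symbols were not well above background. All 20 macrophage genes were highest in TTF, and all 18 cartilage genes tested were highest in OP.

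Cartilage genes set OP apart. All 18 tested genes of the cartilage list were at least 2-fold higher in OP than in PaS and than in TTF, against 9.09% of all genes (Ihh, also on the array, was dim on its brightest probe and entered no count, and on its further probe it was above background in OP alone). The median difference was -5.03 log2 units in PaS minus OP and 7.16 in OP minus TTF. Cnmd, encoding chondromodulin, a protein of cartilage that keeps vessels out, stood at -9.07, 6.997 and -8.46, where only the OP value was above background. It was at least 18343-fold higher than in PaS and at least 12558-fold higher than in TTF, and its probe lies at chr14:74326161-74331015 on mm7. Col2a1, the main collagen of cartilage, stood at 3.58, 8.94 and -0.47 and its further probes had the same sign in both differences with OP. Acan, the proteoglycan that makes cartilage springy, stood at -2.65, 4.57 and -5.55. Sox9, the transcription factor that directs cartilage formation, stood at 0.45, 3.48 and -3.53, 8.18-fold higher in OP than in PaS and 129-fold higher than in TTF. Hapln1, a link protein of the matrix, stood at -1.71, 2.60 and -8.77 and Matn1, a matrilin, at -9.21, 1.26 and -5.76. Col10a1, of hypertrophic cartilage, stood at -5.12, -2.97 and -8.89, with TTF not above background. Of the 18, 15 were above background in PaS and 12 in TTF, against 14459 and 14099 of all 15404 genes, and 2, Cnmd and Col9a1, were above background in OP alone and entered the test only through OP.

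Bone genes were divided, with about as many highest in OP as not. Of 25 tested bone lineage genes, 13 were highest in OP, against 9.09% of all genes, 3 in PaS, against 7.95%, and none in TTF, and 16 (15 with the floor) were at least 2-fold lower in TTF than in both others, against 13% of all genes. Ibsp, bone sialoprotein, stood at -7.57, 3.65 and -8.08, with PaS and TTF not above background. It was at least 1809-fold higher in OP than in PaS. Alpl, the alkaline phosphatase of bone-forming cells, stood at -2.77, 4.50 and -4.92, 154-fold higher in OP than in PaS. Bglap, osteocalcin, stood at -0.99, 4.25 and -3.46, and the matrix gene Omd at -1.69, 6.23 and -4.11. Mmp13, a collagenase of bone and cartilage, stood at -1.48, 6.25 and -0.65. The transcription factor Sp7 (osterix) stood at -2.43, 0.94 and -6.46. Runx2, which acts before it, differed by 1.43-fold between OP and PaS on its brightest probe, at 0.85, 1.37 and -1.73. A dimmer probe of Runx2, at -6.97, -3.82 and -8.30, had OP 3.16 log2 units above PaS, while its remaining probes were within 2-fold. Spp1, osteopontin, was at a like level on all 3, at 7.70, 7.86 and 8.15, while Col1a1, the chief collagen of bone and skin, was lowest in TTF, at 6.61, 7.03 and 5.36. Homeobox genes of the lineage ran differently: Msx2 stood at 0.63, -2.71 and -5.76 and Dlx3 at -3.24, -7.23 and -8.12, highest in PaS, and Dlx5 at -2.67, -0.36 and -7.18, highest in OP. Tnfrsf11b, the decoy receptor that restrains osteoclasts, stood at 3.01, 4.81 and -3.79, while its ligand Tnfsf11 was not above background on any of the 3.

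The 10 genes that led in OP were, with Cnmd and Ibsp, Ucma, Mia, Scrg1, 7530428D23Rik, Crispld1, Col9a1, Cytl1 and Foxa2, of which Ucma, Mia, Col9a1, Cytl1 and Cnmd are known from cartilage. Ucma, a protein of cartilage matrix, stood at -3.90, 6.96 and -8.88. Mia, made by chondrocytes, stood at -5.25, 5.41 and -5.58. Col9a1, which coats the fibrils of cartilage collagen, stood at -7.66, 2.54 and -7.71, above background in OP alone. All were far lower in PaS and in TTF. Scrg1, a secreted protein, stood at -3.87, 6.27 and -6.50. Cytl1, a small secreted protein of cartilage, stood at -6.50, 2.95 and -5.56. The endoderm factor Foxa2 stood at -8.52, 1.51 and -8.80, above background in OP alone. The 5 genes lowest in OP against both others were Cck, Dusp4, Havcr2, Tgfbi and Kcnn4. Cck, a peptide hormone, stood at 1.37, -7.88 and 1.51. Dusp4, a phosphatase of MAP kinases, stood at 0.32, -6.49 and 2.84, and Havcr2, an immune receptor, at 0.02, -6.63 and 2.11. OP was not above background for these. Tgfbi, a matrix protein induced by TGF-beta, stood at 4.45, -1.92 and 5.55 and the potassium channel gene Kcnn4 at 2.77, -3.52 and 3.97, both above background on all 3. In each of these 5, TTF was the highest array, though for Cck by only 1.101-fold over PaS.

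Dividing cells express the genes of DNA replication and mitosis together, and these were lowest in OP. Of 30 genes tested, 28 were at least 2-fold lower in OP than in both others, against 6.21% of all genes, and 14 were at least 2-fold higher in PaS than in both others, against 7.95%. The median difference was 3.83 log2 units in PaS minus OP, -2.64 in OP minus TTF and 0.85 in PaS minus TTF. Mki67, the gene of the proliferation antigen Ki-67, stood at 3.69, -1.06 and 3.08, 27.0-fold higher in PaS and 17.7-fold higher in TTF than in OP. Top2a, which untangles DNA before mitosis, stood at 1.09, -3.42 and -0.25. The mitotic kinase gene Plk1 stood at 4.33, -0.53 and 2.08 and Ccnb1, cyclin B1, at 1.68, -2.68 and 0.05. Pcna, the clamp of the replication fork, was the only one to be higher in TTF than in PaS, and only by 1.64-fold, at 5.15, 3.62 and 5.86. The exceptions, not lowest in OP by 2-fold, were E2f1 and Rrm2. E2f1, a factor that turns on S-phase genes, stood at 1.504, 0.69 and 1.496. Rrm2, a subunit of ribonucleotide reductase, stood at 3.87, 0.54 and 0.40, where OP and TTF were within 1.096-fold. Among 10 cell cycle inhibitors and genes of the p53 pathway the arrays differed in single genes: Cdkn1a (p21) stood at 4.27, 2.92 and 2.91, Cdkn1c (p57) at -2.81, 1.81 and 0.52, Cdkn2a (Ink4a and Arf) at -0.93, -0.88 and -1.93 and Trp53 at -0.27, -0.32 and 0.16.

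Contractile genes were highest in PaS. Of 14 genes, 9 were at least 2-fold higher in PaS than in both others, against 7.95% of all genes, and all 14 were above background on all 3 arrays. The median difference was 1.98 log2 units in PaS minus OP and 2.37 in PaS minus TTF. Acta2, the smooth muscle actin of myofibroblasts, stood at 7.75, 5.72 and 4.75, 4.09-fold higher in PaS than in OP and 8.01-fold higher than in TTF, and the 3 further probes above background had the same sign. Tagln, an actin-binding protein, stood at 7.39, 4.42 and 5.07, Tpm2, a tropomyosin, at 6.78, 4.46 and 2.37, and Actc1, the actin of the heart, at 4.57, 1.75 and 0.76. Myh11, the myosin of mature smooth muscle, stood at -2.41, -5.96 and -4.76. Mylk, the kinase of the myosin light chain, ran the opposite way, at -1.15, 1.15 and 0.10, lowest in PaS. Outside this list, Ltbp2, a protein of elastic fibres, stood at 7.43, 2.49 and 3.72 and Fosl1, an AP-1 factor, at 2.20, -2.60 and -1.69, both more than 10-fold higher in PaS than in either other array. Of 12 immediate early genes, 4 were highest in PaS, against 7.95% of all genes, and 4 lowest in OP, against 6.21%: Egr2 stood at 1.38, -4.28 and 1.18 and Nr4a1 at 4.04, 0.32 and 0.43, while Atf3 was highest in TTF, at -2.74, -0.05 and 4.58.

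**Figure D3:**
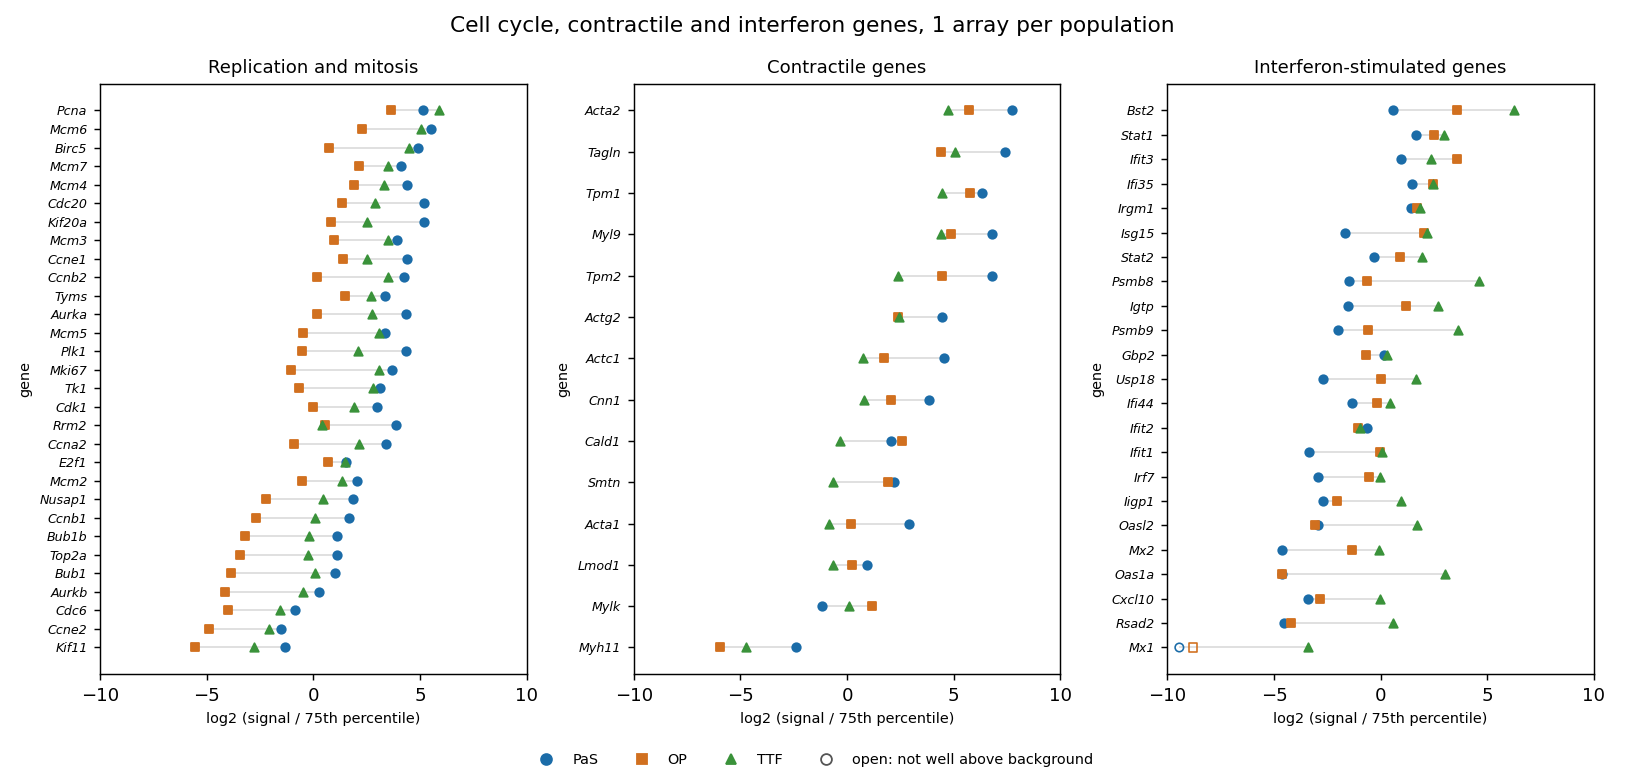
Levels, as log2 of the signal over the 75th percentile, of 30 replication and mitosis genes, 14 contractile genes and 23 interferon-stimulated genes (rows) on the PaS (circle), OP (square) and TTF (triangle) arrays; open symbols were not well above background. OP was lowest for 28 of the 30, PaS highest for 9 of the 14 and TTF highest for 13 of the 23 by at least 2-fold.

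Interferon-stimulated genes differed most between PaS and TTF. Of 23 genes, 13 were at least 2-fold higher in TTF than in both others, against 12.7% of all genes, and 11 at least 2-fold lower in PaS than in both others, against 4.96% of all genes. The median difference was -3.67 log2 units in PaS minus TTF, -0.96 in PaS minus OP and -1.26 in OP minus TTF. Bst2 (tetherin), which holds virus particles at the membrane, stood at 0.58, 3.57 and 6.25. Psmb8, a subunit of the immunoproteasome, stood at -1.48, -0.65 and 4.59, and Oas1a, a sensor of double-stranded RNA, at -4.61, -4.61 and 3.01, with PaS and OP at the same level. For Ifit1 the step lay between PaS and OP, at -3.37, -0.03 and 0.08, while Ifit2 did not differ past 2-fold, at -0.62, -1.08 and -0.98, and its further probe had the opposite sign. The 6 genes of MHC class I presentation had the same order for H2-K1 at 3.96, 5.40 and 7.29, H2-D1 at 3.66, 4.79 and 7.21, B2m at 4.82, 5.54 and 6.57, Tapbp at 3.65, 4.46 and 5.09 and Tap2 at -0.01, 0.23 and 0.64, the last within 2-fold, and Tap1 stood at -0.80, -0.83 and 0.45. H2-K1 and H2-D1 are alike in sequence, and a probe of one may also read the other. Of 17 chemokines and cytokines tested, 8 were highest in TTF, against 12.7% of all genes. Ccl8 stood at -2.23, -6.47 and 5.73 and Ccl2, which attracts monocytes, at 4.16, 0.81 and 6.94. Of 9 complement genes, 5 were lowest in PaS, against 4.96% of all genes: C3, the hub of the cascade, stood at 0.82, 4.42 and 4.97 and C1s1 at 0.95, 3.72 and 2.31, whereas C4b was highest in OP, at -0.41, 3.88 and 0.23, and Cfp (properdin), made by myeloid cells, highest in TTF, at -0.45, -0.89 and 6.40. Macrophages express genes of all these groups, and all 20 macrophage genes were highest in TTF, but their part in these differences was not tested.

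As members of the replication, interferon and contractile groups ran largely in parallel, the 250 bases before the transcription start were searched for the motifs known for these groups, on both strands, in RefSeq windows on GRCm38.p6. The motifs were CCAAT, the CHR element TTTGAA, the core GAAANNGAAA of the interferon-stimulated response element, and the CArG box, which serum response factor binds. CCAAT lay before 18 of the 25 replication and mitosis genes that had a window (72%), and before 37.5% of all 27025 genes with one. The CHR element lay before 7 of the 25 (28%) and 18.3% of all. The interferon core lay before 11 of 18 interferon-stimulated genes (61.1%) and 3.46% of all, and the CArG box before 3 of 11 contractile genes (27.3%) and 1.62% of all. A match describes letters and not binding, and the shares were not tested. The windows printed here are those of members whose window held the motif, with CCAAT and CHR letters in capitals for Top2a (chr11:99024190-99024439, minus strand) and Cdk1 (chr10:69352913-69353162, minus strand), the interferon core in capitals for Ifit1 (chr19:34640639-34640888, plus strand) and Bst2 (chr8:71537473-71537722, minus strand), and the CArG box in capitals for Myl9 (chr2:156775214-156775463, plus strand), each ending at the base before the start. Capitals mark a match on either strand.
Top2a: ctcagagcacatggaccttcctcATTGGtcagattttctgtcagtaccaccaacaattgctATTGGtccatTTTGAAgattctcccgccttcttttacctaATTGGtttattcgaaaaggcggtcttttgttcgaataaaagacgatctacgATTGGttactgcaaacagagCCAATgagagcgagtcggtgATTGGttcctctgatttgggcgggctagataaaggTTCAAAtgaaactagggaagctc
Cdk1: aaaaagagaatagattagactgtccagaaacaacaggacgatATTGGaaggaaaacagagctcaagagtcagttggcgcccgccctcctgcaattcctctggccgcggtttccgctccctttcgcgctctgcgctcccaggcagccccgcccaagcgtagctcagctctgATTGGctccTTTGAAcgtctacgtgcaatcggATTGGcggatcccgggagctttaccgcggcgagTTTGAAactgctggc
Ifit1: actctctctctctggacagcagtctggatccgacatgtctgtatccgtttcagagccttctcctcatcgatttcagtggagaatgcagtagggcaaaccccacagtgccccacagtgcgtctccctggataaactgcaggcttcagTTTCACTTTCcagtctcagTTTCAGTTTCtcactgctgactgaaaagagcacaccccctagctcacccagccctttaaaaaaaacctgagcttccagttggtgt
Bst2: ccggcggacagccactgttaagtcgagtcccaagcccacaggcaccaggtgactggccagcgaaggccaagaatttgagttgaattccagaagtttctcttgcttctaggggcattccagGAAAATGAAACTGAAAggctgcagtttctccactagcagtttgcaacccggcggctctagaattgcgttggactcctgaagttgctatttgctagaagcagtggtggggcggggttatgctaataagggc
Myl9: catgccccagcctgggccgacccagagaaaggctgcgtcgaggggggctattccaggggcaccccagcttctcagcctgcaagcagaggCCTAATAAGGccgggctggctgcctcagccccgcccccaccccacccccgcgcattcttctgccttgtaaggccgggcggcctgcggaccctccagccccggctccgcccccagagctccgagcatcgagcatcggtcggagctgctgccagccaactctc
The Top2a window held 6 CCAAT and 2 CHR matches and that of Cdk1, the kinase that starts mitosis, 3 and 2. Cdk1 stood at 2.99, 0.00 and 1.88 in levels, lowest in OP. The Ifit1 and Bst2 windows held 2 interferon cores each. Myl9, the light chain of smooth muscle myosin, stood at 6.79, 4.86 and 4.42, highest in PaS.

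Most positional genes were lower in TTF than in both marrow populations. Of 33 positional transcription factors tested other than Hox genes, 22 (21 with the floor) were at least 2-fold lower in TTF than in both others, against 13% of all genes, and 2 (1 with the floor) were highest in TTF, against 12.7%. Of the same 33, 6 were highest in PaS and 7 in OP, against 7.95% and 9.09%. Pitx1, which specifies the hindlimb, stood at 3.52, 3.68 and -8.89, where TTF was not above background, and was at least 1127-fold higher in PaS than in TTF. PaS and OP differed by 1.12-fold, and the probe lies at chr13:54912967-54913026 on mm7. Tbx4, its partner in the hindlimb, stood at -3.62, -5.43 and -6.87, and Tbx5, of the forelimb, at -2.90, -1.02 and -6.32, so that a low signal of both was read in the marrow cells. Barx1 stood at 1.15, 2.45 and -8.74, Sim2 at -0.23, 0.18 and -8.76 and Foxd1 at 0.07, 2.34 and -6.65, with TTF not above background in each. Prrx1, a marker of limb mesenchyme, was above background on all 3, at 4.20, 2.93 and 0.90, and Meox2, of the somites, was level, at 2.55, 2.56 and 2.23. Zic1, of the dorsal midline, stood at -7.59, -7.19 and -0.57, with PaS and OP not above background. Among all genes, those lowest in TTF also included Slurp1 at 2.32, 1.63 and -6.95, Smoc1 at 0.51, 4.28 and -6.64, a matrix protein of basement membranes, and the homeobox gene Gsc at 1.199, 0.51 and -8.36.

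The Hox clusters split. Of 35 Hox genes tested, 17 were at least 2-fold lower in TTF than in both marrow arrays, against 13% of all genes, and 5 at least 2-fold higher, near the 12.7% of all genes. In the HoxA cluster 7 of 11 were lowest in TTF, in HoxC 5 of 8 and in HoxD 4 of 7, but in HoxB 1 of 9, and 4 of the 9 HoxB genes were highest in TTF. Hoxb13, at the tail end of its cluster and known from the tail bud, stood at -9.42, -8.79 and 1.87, with only TTF above background, and its probe lies at chr11:96304167-96304226 on mm7. It was at least 524-fold higher in TTF than in PaS. Hoxc9 stood at 2.47, 3.35 and -2.77 and Hoxa11, which patterns the middle segment of the limb, at 1.65, 1.82 and -3.14. Hoxd8 stood at -0.20, -1.24 and -8.61 and Hoxd9 at -0.46, -1.01 and -8.52, with TTF not above background for either. Of the 7 HoxD genes, 3 were above background in PaS alone, as were 480 of all 15404 genes, and so entered the test only through PaS. Of the other 4, 3 were highest in PaS, against 7.95% of all genes. Hoxd4 stood at 0.94, -1.65 and -8.90, 6.003-fold higher in PaS than in OP, Hoxd10 at -1.28, -2.37 and -5.53, and Hoxd13, active in the digits, at -4.41, -8.29 and -8.91, above background in PaS alone. Hoxa10, in contrast, was 4.53-fold higher in OP, at 1.03, 3.22 and -1.58.

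**Figure D4:**
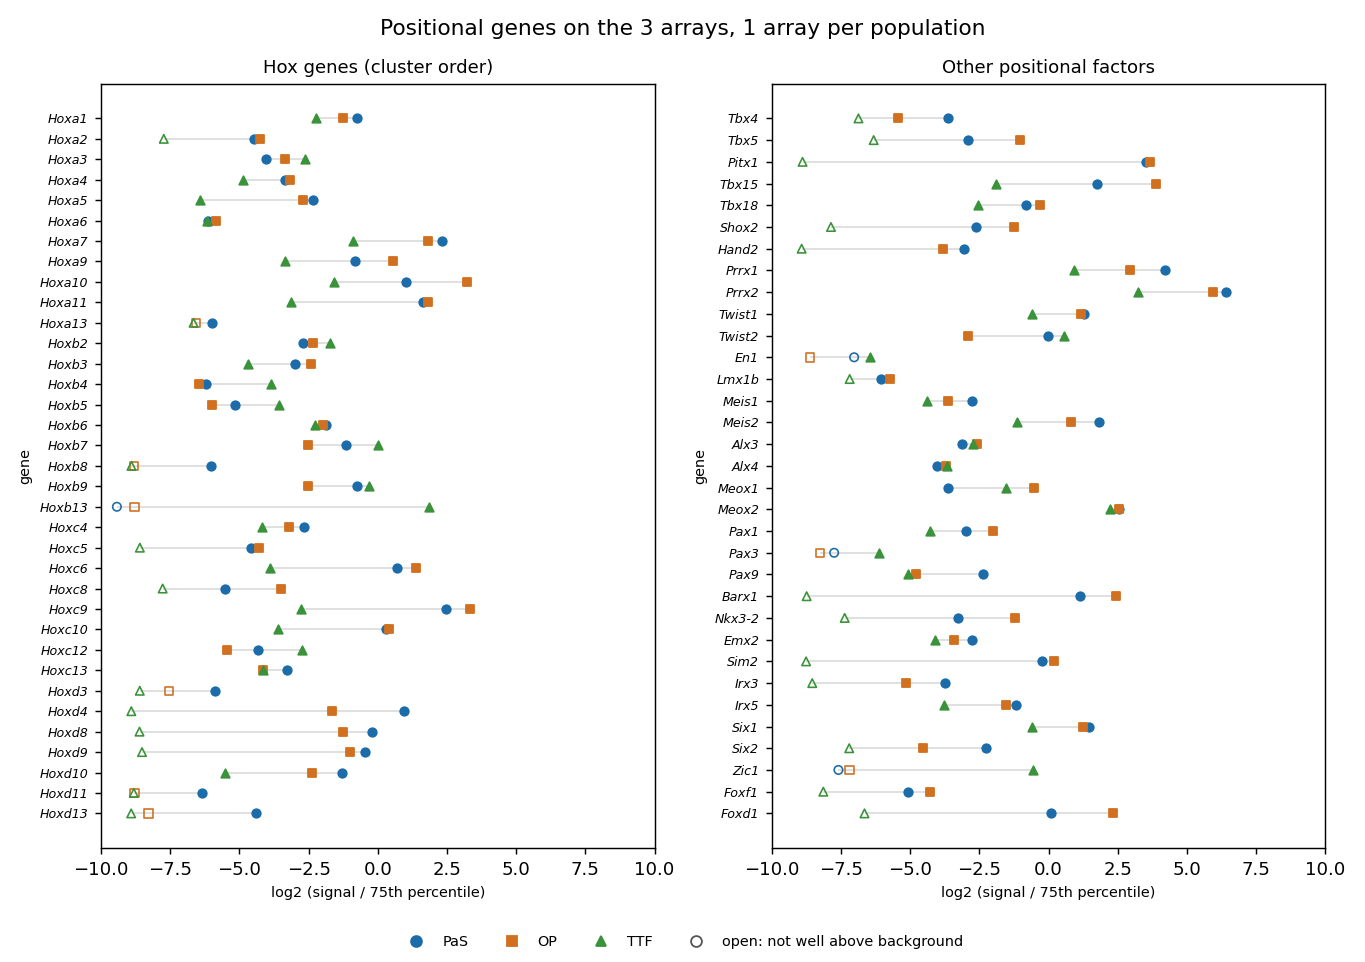
Levels, as log2 of the signal over the 75th percentile, of 35 Hox genes in cluster order and 33 other positional transcription factors (rows) on the PaS (circle), OP (square) and TTF (triangle) arrays; open symbols were not well above background. TTF was lowest by at least 2-fold for 17 of the 35 and 22 of the 33 (21 with dim signals at the floor), and among the genes above background in TTF alone were Hoxb13 and Zic1.

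Genes of the marrow stroma and of mesenchymal stem cells did not follow 1 order. Of 20 tested, 6 were highest in PaS, 4 in OP and 1 in TTF, against 7.95%, 9.09% and 12.7% of all genes, and 2 were lowest in PaS, 5 in OP and 6 in TTF, against 4.96%, 6.21% and 13%. Cd44, the receptor of hyaluronan, stood at 5.69, 2.01 and 4.11, Nes, encoding nestin, at 1.64, -2.70 and -0.71, and Kitl, the stem cell factor, at 1.84, -0.96 and -0.37, all highest in PaS. Cxcl12, which retains blood stem cells in the marrow, was highest in OP, at 3.27, 6.38 and 3.99, 8.62-fold above PaS. Ngfr was highest in OP too, at -5.08, -0.13 and -3.47. A further probe of Ngfr, at -6.02, -5.12 and -5.75, had OP less than 2-fold above each of the others. Lepr, the leptin receptor of adult marrow stroma, was dim on its brightest probe, and its further probe was above background in PaS alone, near the limit. Nt5e, encoding CD73, stood at 1.47, 2.13 and -3.78, low in TTF. Thy1, encoding CD90, stood at 5.21, 4.23 and 4.56, within 2-fold on all 3, though a further probe had PaS 1.75 log2 units above OP. Of 6 pericyte genes tested, 3 (2 with the floor) were highest in PaS and 1 in TTF, against 7.95% and 12.7% of all genes. Above background in PaS alone were 2 of the 6, which so entered the test only through PaS, and 480 of all 15404 genes. Cspg4, encoding NG2, was highest in PaS, at 3.76, 2.63 and -1.27, whereas Anpep was highest in TTF, at 1.04, 0.90 and 5.53.

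Of 35 matrix genes of fibroblasts, 5 were highest in PaS, 6 in OP and 5 in TTF, against 7.95%, 9.09% and 12.7% of all genes, and 7 were lowest in PaS, 6 in OP and 12 in TTF, against 4.96%, 6.21% and 13%. Fn1, fibronectin, stood at 7.22, 7.08 and 1.90, 39.8-fold higher in PaS than in TTF. Of the small proteoglycans, Lum (lumican) stood at -0.80, 7.54 and 1.67, Ogn at 3.79, 7.43 and 2.07 and Dcn (decorin) at 5.20, 8.34 and 5.06, highest in OP, while Bgn (biglycan) was within 1.096-fold in PaS and OP, at 4.74, 4.88 and 3.29. Fbln2, a fibulin of elastic fibres, was highest in PaS, at 6.88, 2.29 and 4.09, and Eln, elastin itself, in TTF, at -5.73, -5.34 and -0.08, together with Dpt, a protein of the dermis, at -3.93, 1.12 and 2.96, and Postn at 0.16, 2.42 and 4.65. Among 22 matrix proteases and inhibitors, Timp3 was highest in OP, at 6.02, 8.40 and 2.83, Timp1 in PaS, at 8.10, 6.69 and 4.08, and Mmp3 in TTF, at 0.95, 2.38 and 4.06. Of 8 tendon genes, the transcription factors Scx, at 4.75, 3.77 and -2.49, and Mkx, at 0.96, 0.69 and -2.43, were lowest in TTF, but the late tendon gene Tnmd was highest there, at -4.24, -1.10 and 1.36. Of 13 fat genes, 5 were highest in TTF, against 12.7% of all genes, with Lpl at 1.43, 2.21 and 5.57 and Cd36, which macrophages also make, at -8.92, -6.77 and 2.07, above background in TTF alone. Pparg, which directs fat formation, was within 2.07-fold on all 3, at 1.44, 0.92 and 0.39, and Adipoq, made by mature fat cells, stood at -8.85, -2.23 and -5.05.

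Of the signalling genes, 13 of 28 Wnt genes, 13 of 25 genes of the TGF-beta and BMP pathway and 10 of 23 genes of the FGF, IGF, PDGF and HGF pathways were lowest in TTF, against 13% of all genes. The Wnt antagonist Wif1 stood at -3.29, 4.06 and -8.47 and Frzb at -2.15, 2.01 and -2.31, highest in OP, but the antagonist Sfrp2 was lowest in PaS, at -4.60, 4.36 and 5.16, 496-fold lower than in OP. The nuclear factors of the pathway, Lef1 at -3.40, -2.63 and -8.76 and Tcf7 at -2.45, -3.88 and -8.02, and its feedback target Axin2, at -4.26, -5.003 and -8.76, were not above background in TTF. Of the BMP genes, Gdf10 was highest in OP, at -4.01, 4.41 and -1.86, as was the antagonist Chrdl1, at -3.88, 2.88 and -0.70. The BMP target Id1 stood at 3.93, 3.87 and 0.37, low in TTF, and the latent TGF-beta binding protein Ltbp1 at 2.71, 0.38 and -4.21. Igf1 was lowest in PaS and highest in TTF, at 0.33, 3.26 and 5.92, and the IGF binding protein gene Igfbp5 was highest in OP, at 1.34, 5.87 and 2.46. Fgf2 stood at -1.08, -3.33 and -7.69 and the receptor gene Fgfr2 at -1.60, 2.67 and -3.27. Imprinted growth genes of the fetus were highest in OP for 4 of 11 tested, against 9.09% of all genes: Mest stood at -2.84, 4.90 and -1.83 and H19 at -4.25, 1.60 and -1.33. Igf2, beside H19 on its chromosome and in the list of growth factor pathways, stood at -4.57, 1.21 and -3.02. Rian, of the Dlk1-Meg3 region, ran differently, at 2.01, -1.38 and -3.38, though a further probe had PaS only 0.22 log2 units above OP.

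The 10 genes that led in PaS stood 96.7 to 515-fold above the nearer of the other arrays, against 280 to 12558-fold for those of OP and 7512 to 22131-fold for those of TTF, with a dim array at its bound. Among them were Lce1g, Lce1i, Serpinb2, 1700012B09Rik, Hsd3b2, Aqp5, Fam181b and the Y-linked genes Eif2s3y and Ddx3y. Lce1g stood at 2.53, -6.52 and -6.97 and Lce1i at 1.98, -6.55 and -7.17, both above background in PaS alone on these probes. A further probe of Lce1g, at -5.82, -6.29 and -6.26, was above background on all 3 and led in PaS by only 0.47 and 0.45 log2 units. These genes belong to a family of the cornified envelope of the skin whose members are close in sequence, so that 1 probe may read several. The protease inhibitor gene Serpinb2 stood at 1.56, -6.38 and -8.75. The water channel gene Aqp5 stood at 3.77, -2.86 and -4.72, above background on all 3, unlike Serpinb2, which was so in PaS alone. The steroid enzyme gene Hsd3b2 stood at 0.95, -8.80 and -8.89. Its lead rested on 1 probe and turned when the median of all probes of the gene was taken. The 5 genes lowest in PaS were Sfrp2, Saa3, Calca, Chl1 and Rarres2. Saa3, an acute phase protein, stood at -5.09, 2.08 and 3.02. Calca, the gene of calcitonin, stood at -9.36, -1.03 and -1.28, not above background in PaS. Rarres2, encoding the chemoattractant chemerin, stood at -3.02, 2.34 and 2.93, and Chl1, an adhesion protein of neurons, at -7.07, -0.996 and -1.33. OP and TTF were alike for each of these, within 2-fold, and PaS stood apart. Of 11 keratinocyte and epithelial genes tested, 3 were highest in PaS, against 7.95% of all genes. Krt5 stood at -5.63, -5.54 and -5.33 and Krt14, its partner in basal keratinocytes, at -5.36, -5.08 and -4.01, while Perp, an adhesion protein, stood at 1.46, -1.78 and -7.59. Of 10 skeletal muscle genes tested, 6 (4 with the floor) were highest in OP and 2 (1 with the floor) in PaS, against 9.09% and 7.95% of all genes. Above background in OP alone were 4 of the 10, which so entered the test only through OP, and 282 of all 15404 genes. Among the 4 was Myl1, a myosin light chain, at -9.31, -0.72 and -6.84. Chrna1 was highest in PaS, at -2.35, -5.60 and -6.89. Of 8 Schwann cell and melanocyte genes 4 were highest in OP, against 9.09% of all genes, for example S100b, also made by chondrocytes, at 3.36, 6.45 and 1.19. Of 6 red cell genes 2 were highest in OP and 1 in TTF, against 9.09% and 12.7%.

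Sex-linked genes separated the samples. Eif2s3y stood at 0.80, -8.54 and -8.66 and Ddx3y at 0.64, -8.71 and -8.82, above background in PaS and not in OP or TTF, and the Y-linked genes Kdm5d at -3.19, -8.53 and -8.67 and Uty at -5.17, -8.68 and -8.76 did the same. Xist, which silences an X chromosome in females, was above background on all 3, at 1.03, 3.21 and 4.00. The PaS sample thus held RNA of Y-linked genes and of Xist, and OP and TTF held Xist without Y-linked RNA. Among the clones, both Eif2s3y and Ddx3y were above background in 3 of 10 derived from PaS, 7 of 10 from OP and 1 of 10 from TTF. The OP and TTF arrays therefore did not carry the Y-linked RNA found in 7 and 1 of the clones named for them. A difference between these populations that comes with the sex of the animals cannot be told apart from the others.

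Of the reprogramming factors, Klf4 was highest in PaS. It stood at 5.79, 4.68 and 3.53, 4.79-fold higher in PaS than in TTF and 2.17-fold higher than in OP. EB-3 read 6.60 on the same probe, and the other ES line, RF8, 3.98, where RF8 lay on another slide and was scanned in another session. Myc stood at 1.36, 0.41 and 0.86, within 1.93-fold on all 3, with both further probes in the same order. Tbx3, a T-box factor of ES cells and of the limb, stood at 0.27, -0.76 and -3.27, 11.7-fold higher in PaS than in TTF, where EB-3 read 4.01 and RF8 1.202. Pou5f1, Sox2 and Nanog, the core factors of pluripotency, were not above background on any of the 3, where EB-3 read 4.76, 3.84 and 4.38 and RF8 1.88, 3.71 and 2.72. Hmga2, a chromatin protein of growing embryonic tissue, was highest in PaS, at 4.10, -1.80 and -0.03, and its relative Hmga1 lowest in OP, at 7.13, 3.21 and 6.31. Of 11 tested genes of the reprogramming list, 5 (3 with the floor) were highest in PaS, against 7.95% of all genes, and none in OP or TTF. Besides Klf4, Tbx3 and Hmga2 these were the Myc relatives Mycl and Mycn, above background in PaS alone and near its limit there, at -5.68, -7.41 and -6.84 and -5.89, -8.55 and -8.64, an order that normexp background correction turned.

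**Figure D5:**
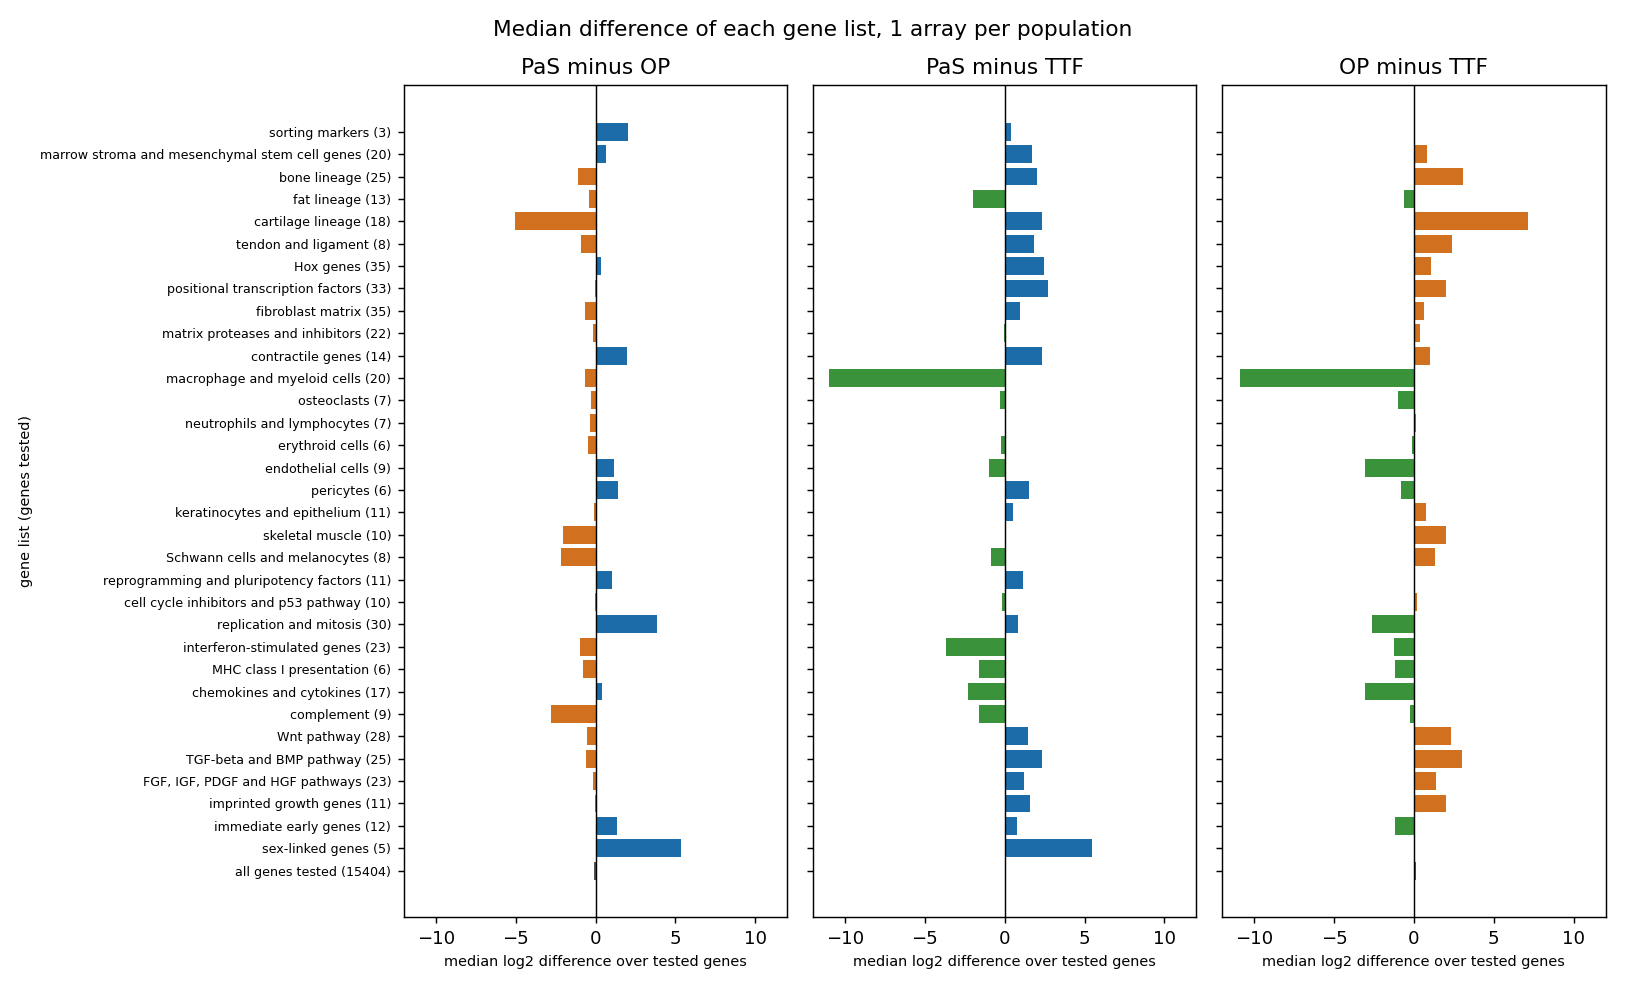
Median log2 difference of each gene list in the 3 pairs of arrays; bars to the right are higher in the first array of the pair and bars to the left in the second, coloured by the higher population, with the number of genes tested in brackets and all genes at the foot. Among the longest bars are those of macrophage genes toward TTF (-10.99 and -10.86) and of cartilage genes toward OP (-5.03 and 7.16).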

How the data were processed

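Each array was read from its scanner file. The authors labelled total RNA with Cy3, hybridized it in 1 colour and, per the file headers, extracted the 3 source arrays with Agilent Feature Extraction 10.7.3.1. The deposited processed signal is an intensity after subtraction of a spatially detrended background, with no scaling between arrays. The deposited series table holds the authors' log2 values, centred so that the column medians were -0.62 for PaS, -0.35 for OP and -0.45 for TTF, and its differences between arrays had r = 1.00 and a slope of 1.00 with those computed here. The authors' further analysis used GeneSpring GX.

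Control spots and spots flagged as outliers (83 to 90 per array) were left out, spots of 1 probe were averaged, and each array was divided by its 75th percentile before log2 (Python 3.11.15, numpy 2.4.6, pandas 2.3.3). No gene probe was saturated. A probe entered where it was well above background on at least 1 of the 3 arrays. Where 1 side of a difference was not, the fold is given as "at least", with the dim side at the higher of its own value and the lowest signal well above background on that array (-7.17, -6.48 and -6.62 for PaS, OP and TTF). Through RefSeq, 24524 probes were named by symbol, 3109 by synonym and 5086 by accession, and 8455 were unnamed. Groups came from the sample titles.

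Comparisons were the 3 pairs of arrays, with no test, as each population had 1 array. The code for the calls was run on simulated bright probes with known differences larger than the cutoff. That covers neither dim probes nor the spread between samples. Named were the 10 genes highest and the 5 lowest in each population against both others, list members with the widest range or a defining role, and the genes the study discusses, apart from a few that are not reported here. The members and gene lists were chosen with earlier results of these data known. Alternatives were normexp background correction (limma 3.58.1 in R 4.3.3, offset 50), quantile normalization over the 35 arrays, scaling to the median of probes above background, the authors' table, dim signals at the floor, other filters on dim probes, the median of all probes of a gene, and 8-fold in place of 2-fold.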

Additional observations from a re-analysis of the deposited data

How the results depend on the processing

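Of 452 differences past 2-fold in 183 named genes, all stayed within the spread between replicate clones when scaled to the median of bright probes or taken from the authors' table. More moved past it under other settings: 168 with normexp background correction, 73 with dim signals at the floor, 33 with the median of all probes of a gene and 30 with quantile normalization. Signs turned in 6 with normexp and 3 with the median of all probes. With normexp background correction, PaS minus OP became -0.18 for Bcl2a1b, -0.20 for Ptprc, -0.24 for Mycn and -0.29 for Mycl, and PaS minus TTF -0.21 for Mycn and -0.23 for Mycl. With the median of all probes of a gene, Ptprc in PaS minus OP became -0.66, and Hsd3b2 -0.60 in PaS minus OP and -0.48 in PaS minus TTF.

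The median difference of all probes was -0.17 in PaS minus OP and -0.03 in PaS minus TTF. It became -0.34 and -0.23 with normexp, and -0.01 and 0.11 with quantile normalization. With normexp, 1784 probes were higher and 2783 lower in PaS than in OP, 3026 higher and 4003 lower in PaS than in TTF, and 3498 higher and 3136 lower in OP than in TTF. Past 8-fold the same counts were 745 and 988, 1074 and 1900, and 1379 and 1657. Over probes above background on all 3 arrays, 3532 were lower in OP than in TTF. The share of calls that were higher moved by less than 10 percentage points in each setting, but quantile normalization turned its majority, from 41.1% to 50.6% in PaS against OP and from 46.4% to 53.3% in PaS against TTF.

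Counts of list members were also taken with dim signals at the floor, a setting added after the data were seen. List medians, in log2 units, moved as follows with normexp. In PaS minus TTF they became -8.02 for macrophage genes, 0.40 for cartilage, 0.97 for bone, 0.30 for Hox, 0.98 for positional, -2.87 for interferon-stimulated and -0.87 for fat genes. In OP minus TTF they became -8.001 for macrophage, -2.26 for replication, 5.62 for cartilage, 2.80 for bone and 0.91 for positional genes, and in PaS minus OP 3.45 for replication and -0.28 for Hox genes. Quantile normalization gave macrophage genes -9.82 in PaS minus TTF, -10.18 in OP minus TTF and 0.0072 in PaS minus OP, and in OP minus TTF 6.55 for cartilage and 3.48 for bone genes, and -1.57 for fat genes in PaS minus TTF. With dim signals at the floor, macrophage genes stood at -10.20 in both pairs with TTF, and in PaS minus TTF cartilage stood at 1.36, bone at 1.68 and Hox genes at 1.51. The median of all probes gave -10.46 for macrophage genes in OP minus TTF, and 1.48 for cartilage and 1.68 for Hox genes in PaS minus TTF. The Hox order of PaS and OP and the macrophage order of PaS and OP thus depended on the setting. The causes were not tested. No paired analysis was possible because each population had 1 array and no test was made. Signals near background limit these values, since a dim array gives only a bound.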
